A study of Mus musculus with 6 samples.

Results

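Osteoclast differentiation genes, 10 chosen by symbol, were followed in RAW264.7, a mouse macrophage cell line that is widely used as an osteoclast precursor. All 10 (Tnfrsf11a, Nfatc1, Oscar, Dcstamp, Ocstamp, Acp5, Ctsk, Car2, Mmp9 and Atp6v0d2) were found among 25124 listed genes. Polyadenylated RNA was sequenced from 3 libraries labelled E4BP4 knockout and 3 labelled control. E4BP4 is the protein of Nfil3, a leucine zipper transcription factor known chiefly as a repressor at D-box sites. Both groups were RAW264.7 cells grown as a monolayer in serum-containing medium. The labels name no treatment for either group, RANK ligand included. No source used here says by which method the gene was disrupted, if the cells were 1 clone, or if each library had its own culture. Each p-value below is thus set by how these libraries scatter, and that scatter may be technical only.

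Osteoclasts are bone-resorbing cells that form when macrophage precursors fuse. RANK ligand binds its receptor RANK on the precursor, signals through TRAF6, NF-κB and AP-1, and, with calcium signals from ITAM-coupled receptors such as OSCAR, switches on NFATc1, the master transcription factor of the lineage. NFATc1 then induces genes of fusion (Dcstamp, Ocstamp, Atp6v0d2) and of acid and matrix attack on bone (Acp5, Ctsk, Car2, Mmp9).

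The deposited values correspond to 15615639 to 19867732 reads in genes per library, recovered from TPM and transcript length. Levels are given as TPM, reads scaled by transcript length and library, and log2 fold changes are of log2(TPM + 1), libraries labelled knockout minus libraries labelled control, which understates changes of low genes. Nfil3, the targeted gene, was listed at 99.8 to 104.6 TPM across the knockout-labelled libraries, against 29.5 to 31.0 TPM in the controls. The transcript thus ran against the label. Such values do not read the coding sequence itself, and every direction below rests on the labels. Of 10 macrophage markers all were tested: Csf1r, Cd68, Itgam, Adgre1 and Fcgr1 were lower, Lyz2, Cd14 and Spi1 were higher, and Mertk and Ptprc did not pass. Their summed level was 4179 to 4324 TPM across the knockout-labelled libraries, against 3010 to 3237 TPM in the controls. Lyz2 carried that difference: the other 9 markers summed to 2012 to 2059 TPM with the knockout label and 1993 to 2078 TPM in the controls. Mertk passed as higher in 3 of 13 alternatives. The 9 osteoblast markers summed to at most 0.660 TPM in any library and the 6 fibroblast markers to at most 0.962 TPM. The B cell and epithelial lists summed to at most 0.303 and 0.244 TPM. The neutrophil list summed to 5.17 to 6.38 TPM against 4.51 to 6.28 TPM in the controls, nearly all of it S100a8, with Mpo, Ltf and S100a9 at 0. The T cell list summed to 4.10 to 4.22 against 2.58 to 2.71 TPM, nearly all of it Lck, with Cd3g at 0. In bulk RNA, fewer cells expressing a gene and less RNA per cell cannot be told apart.

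Sequence before the start site was at hand for 4 of the 10 genes (RefSeq promoter table, GRCm38.p6, the assembly of mm10). Of these 3 are shown: Tnfrsf11a, a receptor gene that changed, and Oscar and Acp5, listed at or near 0. Ctsk, also listed near 0, is not shown. Each run is the 250 bases before the start of the listed transcript, 5′ to 3′ on the gene's own strand. Capitals mark matches on either strand to the NFAT core GGAAA or to the MITF-type E-box TCATGTG.
Tnfrsf11a, chr1:105780473-105780722, plus strand: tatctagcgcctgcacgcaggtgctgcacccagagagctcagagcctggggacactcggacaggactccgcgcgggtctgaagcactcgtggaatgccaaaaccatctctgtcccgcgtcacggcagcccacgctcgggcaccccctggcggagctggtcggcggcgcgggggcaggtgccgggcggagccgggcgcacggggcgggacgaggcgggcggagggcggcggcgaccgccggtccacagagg
Oscar, chr7:3616158-3616407, minus strand: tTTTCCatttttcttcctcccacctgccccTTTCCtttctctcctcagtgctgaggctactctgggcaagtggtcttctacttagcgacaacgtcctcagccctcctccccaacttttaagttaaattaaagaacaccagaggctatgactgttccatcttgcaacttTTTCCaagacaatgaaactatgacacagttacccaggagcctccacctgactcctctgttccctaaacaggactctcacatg
Acp5, chr9:22130599-22130848, minus strand: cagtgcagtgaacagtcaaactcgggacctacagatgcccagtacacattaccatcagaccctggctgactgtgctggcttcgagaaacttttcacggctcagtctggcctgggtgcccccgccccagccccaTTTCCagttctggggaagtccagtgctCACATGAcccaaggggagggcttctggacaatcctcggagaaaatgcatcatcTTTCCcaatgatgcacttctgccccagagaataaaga
The D-box letters TTATGTAA and TTACGTAA, searched on both strands, occurred in 0 of these 3 runs, and also in 0 of 6 member windows when Ctsk and 2 further Acp5 starts were counted. These letters are rare, being held by 0.819% and 0.113% of all 32851 windows of this length. The Tnfrsf11a run, of 73.6% GC, held none of the motifs searched, and neither did the Ctsk run. Oscar held 3 NFAT cores and the Acp5 start of the listed transcript held 2, with 1 MITF-type E-box between them, and no match overlapped another. The NFAT core was in 55.6% of all windows and the MITF-type E-box in 3.25%. The AP-1 letters TGANTCA (6.75% of all windows) and the E-box CACGTG (6.02%) were in none of the 6. No match in these windows says nothing of binding elsewhere.

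The comparison asked how these genes differ between the libraries labelled knockout and the controls. Dcstamp, Car2 and Mmp9 rose about 3- to 4-fold under the knockout label, and Tnfrsf11a, the RANK receptor gene, fell. Nfatc1 differed little, and the remaining 5 genes were listed at or near 0 in every library. By limma across all genes with Benjamini-Hochberg adjustment (adjusted p under 0.05), 3 of the 10 were higher, 1 was lower, 1 did not pass and 5 were below the filter of 1 TPM in at least 3 libraries. The background is wide: 50.1% of 11257 genes tested were called, 26.7% higher and 23.4% lower. A rise of at least 1 on the log2 scale was rarer, at 1.06% of genes tested, and Dcstamp, Car2 and Mmp9 all passed it. A fall of that size, held by 1.19% of genes tested, was seen in 0 of the 10. All 5 tested genes reached 1 TPM in every library of both groups.

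**Figure D1:**
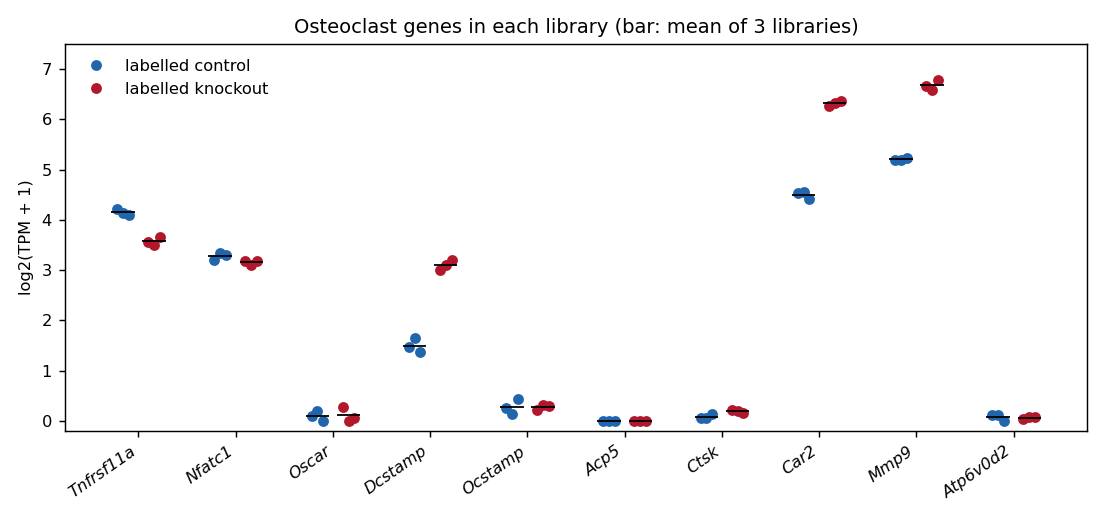
Levels of the 10 osteoclast genes in each library as log2(TPM + 1), with blue points for the 3 control libraries, red points for the 3 libraries labelled knockout and bars for group means. Dcstamp, Car2 and Mmp9 lie higher in red, Tnfrsf11a lies lower, and Oscar, Ocstamp, Acp5, Ctsk and Atp6v0d2 lie at or near 0 in both groups.

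Among receptors, Tnfrsf11a encodes RANK, through which the osteoclast signal enters the cell. Its transcript NM_009399 lies on chromosome 1 from 105780723 to 105847981 (mm10, plus strand, 10 exons in GENCODE M21). Tnfrsf11a measured 10.8, 10.4 and 11.6 TPM across the knockout-labelled libraries, against 17.6, 16.5 and 16.1 TPM in the controls. Every library labelled knockout lay below every control. The means were 10.9 ± 0.636 and 16.7 ± 0.789 TPM (SD, n = 3 each), so Tnfrsf11a was 1.53-fold lower (log2 fold change −0.57, SE 0.0583, limma adjusted p = 3.91e-05).

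Oscar encodes an ITAM-coupled receptor that co-stimulates osteoclast formation. Its transcript NM_175632 lies on chromosome 7 from 3609815 to 3616157 on the minus strand. Oscar was listed at 0.212, 0 and 0.033 TPM across the knockout-labelled libraries, against 0.069, 0.144 and 0 TPM in the controls, and the groups overlapped. These values rest on 7 and 6 reads per group, recovered from TPM and transcript length. The ratio of reads at equal depth was 1.05, with an exact binomial 95% interval of 0.301 to 3.77 that covers counting error only, so a difference was not detectable at this depth.

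Nfatc1 encodes NFATc1, the calcineurin-dependent factor that drives the osteoclast programme. Nfatc1 measured 8.03, 7.56 and 8.09 TPM with the knockout label, against 8.19, 9.09 and 8.84 TPM in the controls. The groups did not overlap, but the closest libraries, 8.09 and 8.19 TPM, were nearly equal. Groups without overlap were common, being found in 58.5% of genes tested. The means were 7.89 ± 0.293 and 8.71 ± 0.465 TPM (SD, n = 3 each), a log2 fold change of −0.13 with a 95% interval of −0.26 to 0.01 that did not pass (limma adjusted p = 0.111). Nfatc1 passed as lower in 3 of 13 alternatives: with upper-quartile scaling (limma adjusted p = 0.0462), with limma-voom on recovered reads (0.0273), and on the authors' deposited log2 values (0.0482), which name another Nfatc1 transcript. Over all 13 the adjusted p ran from 0.0273 to 0.281. In the 3 that passed the fold change was between −0.16 and −0.11, and over all 13 it ran from −0.16 to −0.10. An antisense transcript, AC123818.1, overlaps Nfatc1 in GENCODE M21, and reads of the pair could not be told apart without strand.

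Other NFAT genes were measured beside it. Nfatc2, a calcium-dependent factor of the same family, fell from 16.5 ± 0.0754 to 7.96 ± 0.970 TPM (SD, n = 3 each), a log2 difference of −0.97 (limma adjusted p = 7.71e-06). Its controls were at 16.5, 16.6 and 16.4 TPM and its libraries labelled knockout at 8.24, 6.88 and 8.75 TPM. Nfatc3 measured 19.8 ± 1.68 against 20.6 ± 1.45 TPM and did not pass (limma adjusted p = 0.536), and Nfatc4 was below 0.3 TPM on average in both groups. Rcan1, a calcineurin regulator gene that NFAT factors induce, rose slightly, with a log2 fold change of 0.18, or 0.12 on the authors' deposited log2 values.

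Dcstamp and Ocstamp encode multi-pass membrane proteins needed for precursors to fuse. Dcstamp (NM_001289508, chromosome 15, 39745930 to 39760938, plus strand, 4 exons) measured 6.96, 7.56 and 8.14 TPM across the knockout-labelled libraries, against 1.78, 2.13 and 1.57 TPM in the controls. The lowest library labelled knockout was thus more than 3 times the highest control. The means of Dcstamp were 7.55 ± 0.589 and 1.83 ± 0.284 TPM (SD, n = 3 each), giving a ratio of 4.14, from 670 and 148 reads in all. The log2 fold change was 1.60 (SE 0.0929, limma adjusted p = 1.11e-06). On the authors' deposited log2 values the same fit gave 0.83, still called. The authors' deposited table of their own comparison gave Dcstamp a log2 fold change of 2.05. The deposited log2 values vary little where reads are few: Oscar, at 0 to 6 reads, read 1.08 to 1.13 in every library. Like log2(TPM + 1), they can thus understate changes of low genes.

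Ocstamp did not share that difference. It was listed at 0.166, 0.244 and 0.220 TPM across the knockout-labelled libraries, against 0.195, 0.101 and 0.348 TPM in the controls, so the groups overlapped. The 20 and 18 reads of Ocstamp gave a depth-scaled ratio of 0.997, with an exact binomial interval of 0.501 to 1.998. Atp6v0d2, a proton pump subunit gene that also acts in fusion, was listed at 0.026, 0.048 and 0.049 TPM with the knockout label, against 0.076, 0.079 and 0 TPM in the controls. It rested on 5 and 6 reads per group, and its ratio of 0.747 had an interval of 0.180 to 2.94.

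Car2 encodes carbonic anhydrase II, the cytosolic enzyme that supplies protons for bone resorption. Car2 (NM_001357334, chromosome 3, 14886269 to 14900770, plus strand) measured 76.2, 78.9 and 81.7 TPM across the knockout-labelled libraries, against 22.2, 22.6 and 20.3 TPM in the controls. The groups lay far apart, and replicates of a group differed by little: the SD was 3.52% and 5.77% of the mean, where counting alone gives 2.15% and 4.29%. The means of Car2 were 78.9 ± 2.78 and 21.7 ± 1.25 TPM (SD, n = 3 each), giving a ratio of 3.64 and a log2 fold change of 1.82 (SE 0.0504, limma adjusted p = 1.55e-08). Among 11257 genes tested it ranked number 43 by absolute log2 fold change.

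Mmp9 encodes gelatinase B, a secreted protease that osteoclasts use for matrix and migration and that macrophages also make. Mmp9 (NM_013599, chromosome 2, 164948219 to 164955850, plus strand, 13 exons) measured 100.4, 94.5 and 109.3 TPM across the knockout-labelled libraries, against 35.3, 35.5 and 36.7 TPM in the controls. It was the most abundant of the 10 genes in all 6 libraries. The means of Mmp9 were 101.4 ± 7.47 and 35.8 ± 0.721 TPM (SD, n = 3 each), giving a ratio of 2.83 and a log2 fold change of 1.47 (SE 0.0529, limma adjusted p = 5.96e-08). Its spread under the knockout label, 7.37% of the mean, was wider than the 1.39% that counting alone gives. In the controls the spread of Mmp9 was 2.01% of the mean, where counting alone gives 2.45%.

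**Figure D2:**
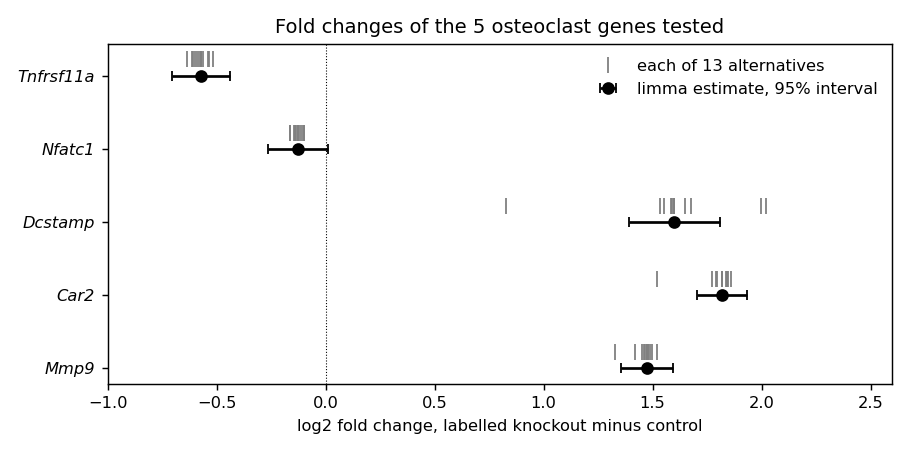
The log2 fold change of each of the 5 osteoclast genes tested, with black points and 95% intervals from limma on log2(TPM + 1) and grey ticks for the 13 alternatives. Dcstamp, Car2 and Mmp9 lie above 0.8 in every alternative, Tnfrsf11a lies between −0.64 and −0.52, and the interval of Nfatc1 spans 0.

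Acp5 and Ctsk encode the classical enzymes of the osteoclast, tartrate-resistant acid phosphatase and cathepsin K. Acp5 (NM_007388, chromosome 9, 22126727 to 22130598, minus strand, 5 exons) was listed at 0 TPM in all 6 libraries, and GENCODE M21 places 6530413G14Rik over it on the plus strand. A count of 0 allows up to 3 reads, which for Acp5 is 0.132 to 0.168 TPM depending on the library. The authors' deposited table names another Acp5 transcript, NM_001102405, also listed at 0 in every library.

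Ctsk (NM_007802, chromosome 3, 95499210 to 95509387, plus strand, 8 exons) was listed at 0.165, 0.151 and 0.117 TPM across the knockout-labelled libraries, against 0.040, 0.042 and 0.096 TPM in the controls. The groups did not overlap, which held for 12.1% of the 8225 genes that were above 0 somewhere but not tested. The values of Ctsk rest on 4, 4 and 3 reads against 1, 1 and 2 reads, and the depth-scaled ratio of 2.47 had an exact binomial interval of 0.731 to 10.6. With no filter on low values, where 27.0% of 19482 genes were called, limma called Ctsk too (log2 fold change 0.11, adjusted p = 0.0390), whereas the authors' deposited table gave Ctsk an adjusted p of 0.431.

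The levels of the 5 measurable genes were compared within each group. In the controls the mean TPM ran from Mmp9 (35.8) through Car2 (21.7), Tnfrsf11a (16.7) and Nfatc1 (8.71) to Dcstamp (1.83), with no overlap between neighbours in that order. In the libraries labelled knockout, Dcstamp (6.96 to 8.14 TPM) overlapped with Nfatc1 (7.56 to 8.09 TPM), so that pair could not be ordered, while Mmp9, Car2 and Tnfrsf11a stood above them in the same order as in the controls.

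Genes of the same enzyme families showed which relatives were present. Other genes of the proton pump were well above Atp6v0d2: its paralog Atp6v0d1 measured 77.2 ± 3.80 and 77.2 ± 0.962 TPM (SD, n = 3 each) and did not pass (limma adjusted p = 0.999). Of 19 other pump genes tested, 5 were higher and 4 lower (median log2 fold change 0.00), where 50.1% of all genes tested were called. Atp6v1h, Atp6v1c1 and Atp6v0c rose by 0.40, 0.28 and 0.16 and Atp6v1b2, Atp6v0e2 and Atp6v1f fell by 0.33, 0.32 and 0.30 on the log2 scale. The call of Atp6v0c was lost in 7 of 13 alternatives (adjusted p up to 0.118), and on the authors' deposited log2 values its change was 0.10. Tcirg1, the pump subunit of osteoclasts whose loss causes osteopetrosis, measured 146.0 ± 4.43 against 136.8 ± 0.853 TPM and did not pass (limma adjusted p = 0.0532, and 0.0426 without knockout replicate 2).

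Of 4 carbonic anhydrases tested besides Car2, 2 were higher, 1 lower and 1 did not pass. Car13, a cytosolic form, was the most abundant of them and rose from 30.02 ± 1.29 to 35.3 ± 1.32 TPM (SD, n = 3 each), a log2 fold change of 0.23. In the controls Car13 was above Car2 in every library, and under the knockout label it was below it in every library. Car9 rose by 0.43 and Car14 fell by 0.50 on the log2 scale, both at under 4 TPM, and Car5b did not pass. On the authors' deposited log2 values the change of Car9 was 0.16 and that of Car14 −0.17. Over all alternatives Car9 ran from 0.16 to 0.63 and Car14 from −0.73 to −0.17. Acid phosphatase genes Acp2 and Acp6 rose by 0.29 and 0.35 on the log2 scale to 20.9 ± 0.384 and 33.5 ± 0.360 TPM, and Acp1 did not pass.

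Metalloproteinases split. Mmp12, the macrophage elastase gene, rose from 447.8 ± 39.5 to 887.7 ± 33.0 TPM (SD, n = 3 each), giving a ratio of 1.98. Mmp13, a collagenase gene, fell by 0.80 and Mmp24, a membrane-bound form, by 0.48 on the log2 scale, and Mmp10 and Mmp19 did not pass. On the authors' deposited log2 values the change of Mmp13 was −0.50, and with limma-voom on recovered reads it was −1.02. Mmp14, the membrane-type metalloproteinase gene of osteoclasts, was below 0.1 TPM on average in both groups, and the inhibitor gene Timp2 fell by 0.30 on the log2 scale. Of the 5 metalloproteinases tested besides Mmp9, 1 was higher, 2 lower and 2 did not pass. Without control replicate 2, Mmp10 passed as lower (limma adjusted p = 0.0411).

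The wider pathway was read from 11 lists of other genes. Each counted once and the 10 genes left out, 146 of 201 listed genes were tested, 50 were higher, 45 lower and 51 did not pass. That is 65.1% called, against 50.1% of all genes tested. The lists were chosen with earlier results of these data known, and the background was not matched for expression level. The difference in share was not tested. The median log2 fold change of the pathway genes was 0.01 and their median absolute value 0.22, where all genes gave 0.02 and 0.17.

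**Figure D3:**
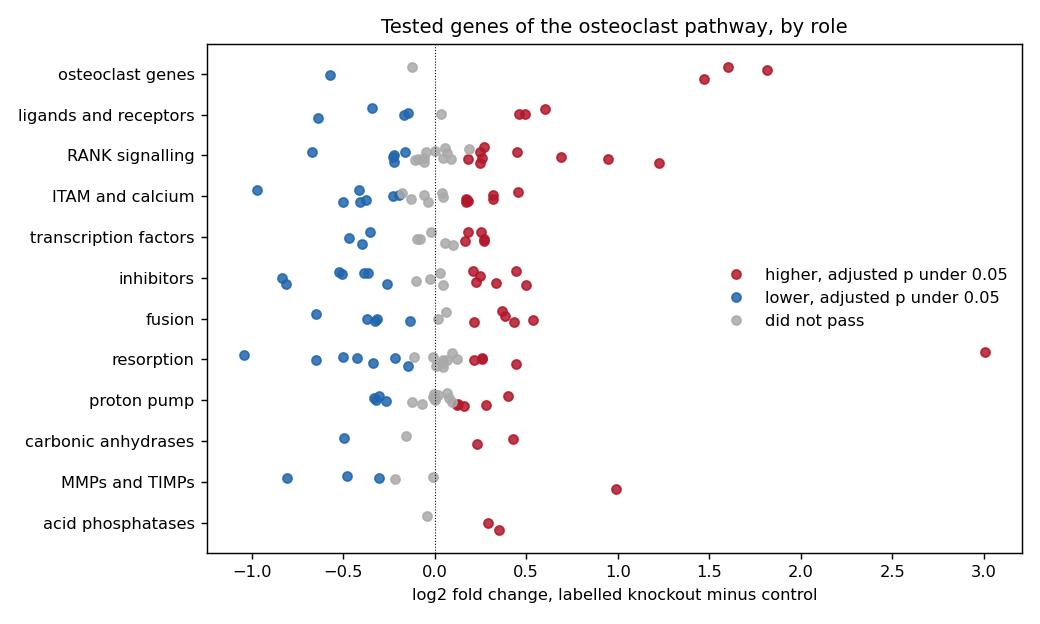
The log2 fold change of each tested gene in the 11 pathway lists and, in the top row, of the 5 osteoclast genes tested. Red points were higher, blue points lower and grey points did not pass in limma, and every list of more than 3 genes holds points on both sides of 0.

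Of ligands and receptors, RANK ligand (Tnfsf11), its decoy receptor osteoprotegerin (Tnfrsf11b) and Il34 were listed at 0 in all 6 libraries. Among 8 tested, 3 were higher and 4 lower. Csf1r, the receptor for the growth factor that precursors need, fell from 248.4 ± 7.70 to 159.2 ± 7.31 TPM (SD, n = 3 each), or 1.56-fold. Csf1, the gene of that growth factor, rose 1.53-fold and Lgr4 1.68-fold, both under 5 TPM on average in both groups. Tnfrsf1a and Ifngr1 fell by 0.34 and 0.17 on the log2 scale. The call of Ifngr1 was lost in 4 of 13 alternatives (adjusted p up to 0.0949). Tlr4, the endotoxin receptor gene, rose by 0.60, and Calcr, the calcitonin receptor gene of mature osteoclasts, was below 0.04 TPM on average in both groups.

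Of 25 RANK signalling genes tested, 9 were higher and 5 lower (median log2 fold change 0.06). Gab2, an adaptor that RANK recruits, rose from 14.6 ± 1.61 to 35.4 ± 0.939 TPM (SD, n = 3 each), a log2 difference of 1.22 (limma adjusted p = 1.06e-06). Traf6, the adaptor that links RANK to NF-κB, rose from 7.29 ± 0.409 to 12.4 ± 0.429 TPM, and Relb, an NF-κB subunit gene of the non-canonical arm, rose 1.99-fold. Map3k14, the kinase gene of that arm, fell by 0.67, and Btk and Akt1 fell by 0.23 and 0.22 on the log2 scale.

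Costimulation and calcium genes were balanced, 7 higher and 7 lower of 20 tested. Trem2, Fcgr3 and the adaptor gene Fcer1g fell by 0.50, 0.41 and 0.38 on the log2 scale, and Tyrobp, which encodes DAP12, did not pass (−0.13, limma adjusted p = 0.0733) but was called lower in 3 of 13 alternatives. Lcp2, Creb1 and Itpr2 rose by 0.45, 0.32 and 0.32. Of 13 transcription factors that act with NFATc1, 5 were higher and 3 lower. Fos, an AP-1 gene required for osteoclasts, fell from 7.59 ± 0.703 to 5.21 ± 0.401 TPM (SD, n = 3 each). Tfe3 and Tfeb fell by 0.40 and 0.35 on the log2 scale, whereas their relative Mitf rose by 0.25 and Fosl2 by 0.27. Myc rose by 0.27, a call lost in 4 of 13 alternatives (adjusted p up to 0.0697). On the authors' deposited log2 values the change of Fos was −0.29 and that of Myc 0.18. With limma-voom on recovered reads they were −0.55 and 0.29.

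Negative regulators of the lineage moved both ways, 6 higher and 7 lower of 17 tested. Irf8, a repressor that precursors must shed, fell from 115.4 ± 4.67 to 87.9 ± 0.0925 TPM (SD, n = 3 each). Dok2, Inpp5d (SHIP1) and Ptpn6 (SHP-1), brakes on receptor signalling, fell by 0.81, 0.52 and 0.51 on the log2 scale. Bcl6, which encodes a repressor of Nfatc1, Ctsk and Dcstamp, rose from 13.4 ± 0.656 to 19.3 ± 0.775 TPM, and Nfkbia and Id3 rose by 0.44 and 0.34.

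Fusion genes other than the members were also split, 5 higher and 5 lower of 12 tested. P2rx7, Cd44 and Sh3pxd2a rose by 0.54, 0.43 and 0.39 on the log2 scale, and Itgav, Cd47 and the tetraspanin gene Cd9 fell by 0.65, 0.37 and 0.33. Of 21 resorption genes tested, 5 were higher, 7 lower and 9 did not pass. Spp1, which encodes the bone matrix protein osteopontin, fell from 2118 ± 119.4 to 1029 ± 27.7 TPM (SD, n = 3 each), or 2.06-fold, and Ctsl fell by 0.50 on the log2 scale. Anpep (aminopeptidase N) rose 8.57-fold, the 1 gene of this list that was higher by at least 1 on the log2 scale. Its part in resorption was not tested. Clcn7, the chloride channel gene of the ruffled border, and Plekhm1 rose by 0.44 and 0.26. Itgb3, the osteoclast integrin subunit gene, and Src were below 0.4 TPM on average in both groups.

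Neighbouring genes did not share the large rises. Within 1000 kb of the Mmp9 start, 26 genes were tested, 1 of them higher and 12 lower (median log2 fold change −0.11). Over all genes tested 26.7% were called higher and 23.4% lower, and no count of neighbours was tested against these shares. The nearest on either side, Zfp335 at 36.5 kb upstream and Slc12a5 at 12.6 kb downstream, had log2 fold changes of −0.21 (lower) and 0.11 (did not pass). The secreted protease inhibitor gene Slpi, in the same window, fell by 1.60 on the log2 scale, or by 0.44 on the authors' deposited log2 values. Over the 13 alternatives its change ran from −2.19 to −0.44. The call of Zfp335 was lost without knockout replicate 2 (limma adjusted p = 0.0561). Ocstamp also lies on chromosome 2, with its start 452.2 kb from that of Mmp9. No gene within 100 kb of Car2, Dcstamp, Tnfrsf11a, Nfatc1 or Atp6v0d2 was tested. Within 1000 kb of Car2, 1 of 5 tested genes was higher (Car13, 244.5 kb upstream), and within 1000 kb of Dcstamp 2 of 5 were higher and 1 lower.

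Oscar and Ctsk, both listed near 0, had neighbours with high levels. The start of Oscar lies 1.22 kb from that of Ndufa3, a respiratory complex gene at 151.4 ± 6.17 and 136.5 ± 14.5 TPM (SD, n = 3 each) that did not pass but was called higher in 2 of 13 alternatives, and of 10 tested genes within 100 kb of Oscar 5 were higher and 2 lower. Ctsk lies 27.6 kb from Ctss, the cathepsin S gene, which measured 515.6 ± 12.6 and 515.2 ± 7.36 TPM and did not pass (limma adjusted p = 0.983), and Arnt on its other side rose by 0.20 on the log2 scale, a call lost without knockout replicate 1 (limma adjusted p = 0.0519). Near Acp5, Elof1 fell by 0.23 and Pigyl did not pass, and near Ocstamp, Trp53rka and Elmo2 both fell by 0.36 on the log2 scale.

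**Figure D4:**
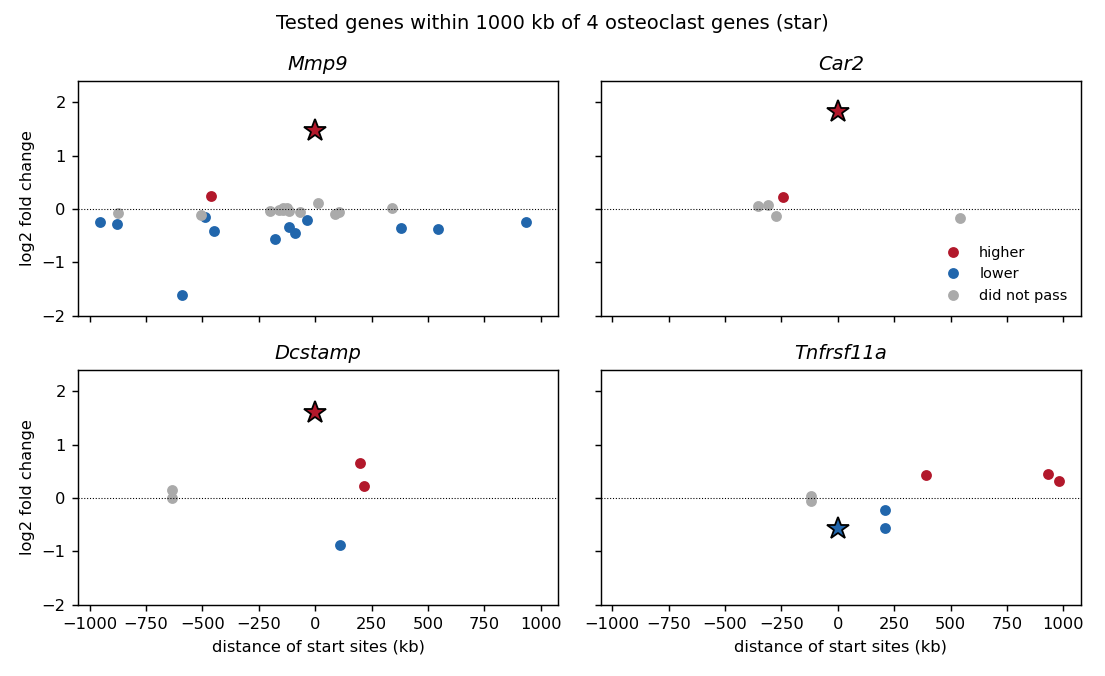
The log2 fold change of each tested gene against the distance of its start from the start of Mmp9, Car2, Dcstamp or Tnfrsf11a (stars), in kb, positive in the direction of transcription. Red points were higher, blue points lower and grey points did not pass, and no neighbour lies as high as Mmp9, Car2 or Dcstamp, while Slpi, near Mmp9, lies lowest at −1.60.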

How the data were processed

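Per the submitters' processing notes the tools were bcl2fastq, STAR 2.7.5a, HOMER 4.11.1 and DESeq2 with build mm10, without the role of each; strand use in counting is not named there. The authors deposited TPM values with 1 RefSeq transcript per symbol. The authors' other deposited table held normalized log2 values and the log2 fold changes, p-values and adjusted p-values of their own comparison, whose header reads WT vs. TG, with TG read here as the group labelled knockout. For 4 of the 10 genes (Nfatc1, Dcstamp, Acp5, Car2) it names another transcript. Its normalized log2 values vary little where reads are few, so fold changes taken on them can be smaller for low genes.

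Genes with a TPM of at least 1 in at least 3 of 6 libraries were compared as log2(TPM + 1) by limma 3.58.1 (R 4.3.3; eBayes with trend; two-sided; Benjamini-Hochberg over all genes kept; no covariates). The script was tested on simulated data. TPM times length fell within 0.1 of whole multiples of 1 step per library, which gave 15615639 to 19867732 recovered reads, used only for depth, counting intervals and a limma-voom alternative. Intervals and floors cover counting error only. Every column of per-sample values was used. The genes and lists were chosen with earlier results of these data known. From each list the text names up to 3 tested genes in each direction with the largest fold change. Genes under 5 TPM on average in both groups were left out of that choice. Also named are nearest neighbours and genes that share a family, a complex or an enzyme activity with the 10. Other names were chosen after their values were seen.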

Additional observations from a re-analysis of the deposited data

How the results depend on the processing

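The alternatives were a pseudocount of 0.1, no filter, a TPM minimum of 5, upper-quartile scaling, limma-voom on recovered reads, the authors' deposited log2 values, a replicate block and leaving out each library. Of 65 values for the 5 tested osteoclast genes, 62 kept direction and side of the threshold, and the other 3 were Nfatc1, whereby 2 of the 10 genes were lower with upper-quartile scaling, 2 with limma-voom and 2 on the deposited log2 values. With a TPM minimum of 5, Dcstamp was kept only through the libraries labelled knockout, its controls being at 1.57 to 2.13 TPM. Mmp13 was kept only through its controls, its libraries labelled knockout being at 2.73 to 3.07 TPM. Itpr2 and Map3k14 also had libraries below 5 TPM in their lower group. That setting is thus no separate support for these genes, or for others with libraries below 5 TPM in a group. The counts given here include it. Of 689 values for 53 other genes named by the rule or as the targeted gene, 15 lost the call (Ifngr1, Myc and Atp6v0c) and 0 changed sign. For 35 further genes named with a test, Csf1 and Lgr4 not among them, there were 447 values. Of these, 2 lost the call (Zfp335, Arnt) and 10 gained one (Tyrobp, Mertk, Ndufa3, Tcirg1, Mmp10). Another 17 changed sign, all for genes that did not pass either way. With each library left out in turn, Nfatc3 ran from −0.111 to 0.00584, Atp6v0d1 from −0.0399 to 0.0218, Mmp19 from −0.0767 to 0.0680, S100a8 from −0.0559 to 0.111, Ctss from −0.0187 to 0.0148 and Pigyl from −0.0548 to 0.0567. Ctss was at −0.0197 with upper-quartile scaling, at −0.0190 with limma-voom and at −0.0115 on the deposited log2 values, where Mmp19 was at 0.000269. Also on the deposited log2 values Adgre1 was at −0.32 and Lck at 0.25, against −0.55 and 0.52, and with limma-voom Adgre1 was at −0.84. The change of Lck reached 0.66 in another alternative. With a library left out, 3 of the 10 genes were higher and 1 lower each time, and pathway genes ran from 43 to 48 higher and 42 to 45 lower. Over all genes, upper-quartile scaling gave 2819 higher and 2929 lower against 3002 and 2637. With a pseudocount of 0.1 the untested difference of Ctsk was 0.63 and of Atp6v0d2 −0.06. Replicate numbers share only a number: deviations of same-numbered libraries correlated at −0.01, −0.06 and 0.003 across genes, and not every library correlated best with its own number. With the replicate block 3 of the 10 genes were higher and 1 lower, pathway genes were 47 higher and 44 lower, and all genes 2794 higher and 2503 lower. Depth limits Oscar, Ocstamp, Ctsk and Atp6v0d2, at 4 to 20 reads per group. Acp5 had 0 reads in both groups, and whether depth, counting or true absence gave that 0 was not tested.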

Other observations

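Some regulators of the lineage were too low to be tested but did not overlap between groups, and they were picked after their values were seen. Siglec15, an ITAM-coupled receptor gene of osteoclasts, averaged 0.659 ± 0.0886 TPM in the libraries labelled knockout and 0.370 ± 0.0430 TPM in the controls (SD, n = 3 each). Siglec15 rests on 25, 28 and 21 recovered reads against 15, 13 and 10. Prdm1, a repressor that removes brakes on osteoclast genes, averaged 0.0400 ± 0.0148 against 0.145 ± 0.0325 TPM, and Pparg averaged 0.174 ± 0.0275 against 0.426 ± 0.0391 TPM. Prdm1 rests on only 4, 2 and 4 reads against 9, 12 and 12, and Pparg on 4, 6 and 5 against 11 in each control. Socs1, a brake on cytokine signalling, averaged 0.441 ± 0.0755 against 1.09 ± 0.182 TPM, from 9, 10 and 7 reads against 17, 23 and 18. Its relative Socs3 was tested and fell by 0.84 on the log2 scale, at 1.25 ± 0.141 against 3.02 ± 0.241 TPM (limma adjusted p = 7.18e-05). On the authors' deposited log2 values the change of Socs3 was −0.42, and with limma-voom on recovered reads it was −1.29. Groups without overlap were found in 12.1% of all genes above 0 somewhere but not tested.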
